A study of Arabidopsis thaliana with 12 samples.

Results

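Organelle-encoded genes are the genes carried by the plastid and mitochondrial DNA of the plant cell. They were taken here as the probe sets with a single annotated gene whose symbol begins, in lower case, with rps, rpl, psa, psb, ndh, pet, atp, rpo, nad, cox or ccm. The rule found 78 of the 22810 probe sets on the array, for 71 genes. The plastid genome supplied 61 probe sets for 61 genes, of 85 protein-coding plastid genes in the RefSeq table (assembly TAIR10.1), and the mitochondrial genome supplied 17 probe sets for 10 genes. The plastid probe sets comprised 15 of ribosomal proteins, 4 of the RNA polymerase, 5 of photosystem I, 15 of photosystem II, 6 of the cytochrome b6f complex, 6 of the ATP synthase and 10 of the NDH complex. The mitochondrial ones were 15 of complex I (nad) and 2 of cytochrome oxidase (cox). No member belonged to a mitochondrial ribosome, a mitochondrial ATP synthase or cytochrome c maturation, and the prefix ccm matched no symbol. A further 17 probe sets carried a symbol of the rule together with other genes, 10 of them with a nuclear gene, and were not members.

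Leaf RNA of Arabidopsis thaliana came from 4 genotypes with 3 arrays each: ssi2 act1, ssi2 sid2, ssi2 and wild type. All are labelled as Col-0 in genetic background and 4 weeks in age, and no treatment apart from growth in a chamber is named. SSI2 forms oleic acid as a desaturase of the plastid, ACT1 is an acyltransferase there, and SID2 the isochorismate synthase of salicylic acid synthesis. Both double mutants carry the ssi2 mutation, and no ssi2-free act1 or sid2 plant is among the samples. The replicates are called biological in the titles, without saying whether plants were grown apart or pooled, so the p-values cover only the spread among these arrays, which may be technical.

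Plastid genes are transcribed by a bacterial-type polymerase, whose core subunits are the rpo genes of the plastid itself, and by phage-type polymerases encoded in the nucleus. Many of them lie in clusters that are transcribed together and then processed, and their products join nuclear-encoded subunits in the ribosomes and the photosynthetic complexes. Plant mitochondria keep genes for parts of the respiratory chain, some of which, nad1 among them, are assembled from separate transcripts by trans-splicing. Transcripts of both organelles mostly lack the stable poly(A) tails of nuclear messengers.

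Each array had a trimmed mean signal between 500.0 and 500.1. The median signal lay between 95.8 and 158, and 16.9% to 21.8% of probe sets had a signal under 16. Between arrays of the same genotype Pearson's r lay between 0.915 and 0.982, taken over probe sets, which are no independent replicates. Wild type replicate 2 and ssi2 replicate 3 gave the lowest correlations with the other arrays of their genotype. The 25S rRNA control signal was 276 to 352 in ssi2 act1, 174 to 216 in ssi2 sid2, 201 to 1817 in ssi2, where replicate 3 was the highest, and 206 to 416 in wild type. The ratio of the 3' to the 5' actin control was 0.353 to 0.791 in ssi2 act1 and 0.396 to 0.622 in ssi2 sid2. It was 0.343 to 0.450 in ssi2 and 2.24 to 3.24 in wild type, which did not overlap the mutants. For GAPDH the ratio was 0.912 to 1.28, 0.914 to 0.982, 1.04 to 1.23 and 0.967 to 1.14 in the same order of genotypes. For ubiquitin it was 1.52 to 1.65, 1.20 to 1.45, 0.995 to 1.38 and 1.18 to 1.48. Wild type overlapped every mutant genotype for GAPDH, and all but ssi2 act1 for ubiquitin. Of the leaf mesophyll markers 1 of 13 was measured, RCA (Rubisco activase). Its signal was 8251 to 13347.5 in ssi2 act1 and 16668 to 19771 in ssi2 sid2. In ssi2 it was 11679 to 21357 and in wild type 2419 to 13399.5. The ssi2 sid2 arrays lay above those of ssi2 act1 and of wild type without overlap. The 2 measured of 5 root markers summed to 75.7 to 82.7 in ssi2 act1 and 60.5 to 88.9 in ssi2 sid2. In ssi2 they summed to 58.6 to 353 and in wild type to 57.2 to 66.3. On the ssi2 arrays PYK10 was at 308, 214 and 37.2, and the other root marker lay between 21.4 and 58.7. With limma, described below, 1 of the 2 was called higher in ssi2 than in wild type (log2 difference 1.84). The 3 measured of 6 guard cell markers summed to 193 to 274 in ssi2 act1 and 288 to 325 in ssi2 sid2. In ssi2 they summed to 172 to 272 and in wild type to 144 to 209. The part of these differences in the results below was not tested.

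The members were measured at very different signals, which are not comparable between probe sets because probes differ in brightness. Plastid members had a median of mean signals of 2959, the mitochondrial members one of 87.5, and all probe sets one of 149.9. A mean signal of at least 10000 was reached by 13 members, of which 0 passed the limma threshold in any comparison (log2 differences between -0.68 and 0.60). A mean signal under 200 was found for 17 members, 4 plastid and 13 mitochondrial, and 4 members, all mitochondrial, had an array under a signal of 16. On each array the median signal of the 61 plastid members was 1818 to 3765 in ssi2 act1, 3366 to 3967 in ssi2 sid2, 2019 to 2829 in ssi2 and 3060 to 3216 in wild type. The ssi2 arrays lay below those of ssi2 sid2 and of wild type without overlap, and ssi2 act1 replicate 3 had the lowest value of all. For the 17 mitochondrial probe sets the median signal was 51.5 to 90.6 in ssi2 act1, 59.4 to 91.9 in ssi2 sid2, 64.8 to 85.3 in ssi2 and 95.7 to 131 in wild type. Wild type lay above the 3 mutant genotypes without overlap.

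Genotypes were compared with limma on log2(signal + 16), fitted to all 12 arrays, and a probe set was called at a Benjamini-Hochberg adjusted p under 0.05 over 22746 probe sets. Over the 6 comparisons 12 members (15.4%) were called at least once, against 18% of all probe sets, and 66 members were called in none. The share of members called was thus below that of all probe sets. Of the 20 calls, 19 were between genotypes whose arrays did not overlap. The comparisons share arrays, since each genotype enters 3 of them, so no agreement between comparisons is independent. Counts with an array left out are given below without the share of all probe sets called in the same fit. They do not show whether members changed more than the background.

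In ssi2 against wild type 6 members were called (7.69%, background 10.1%), 1 higher (background 5.77%) and 5 lower (background 4.34%). The median difference was -0.31 for plastid and -0.22 for mitochondrial members, against 0.08 for all probe sets. Below 0 lay 56 of 78 members, against 43.9% of all probe sets, and 22 lay above it (background 56.1%). The arrays did not overlap for 27 members, 3 higher and 24 lower (background 25.2%). The count was 2 when wild type replicate 1 or ssi2 replicate 2 was left out and 3 when wild type replicate 3 or ssi2 replicate 3 was left out. Over all probe sets the calls split into 1312 higher and 987 lower, which became 1106 and 1386 after quantile normalization and 891 and 1719 after centring each array on its median. Median centring moved the median of all probe sets to -0.22, and the plastid median lay 0.39 below it, as in the deposited scaling. After quantile normalization the plastid median was -0.14 and that of all probe sets -0.04.

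The second mutations were set against ssi2. In ssi2 act1 4 members were called (5.13%, background 8.37%), all higher (background 3.17%) and none lower (background 5.2%). Above 0 lay 56 of 78 members, against 46.4% of all probe sets, and 22 lay below it (background 53.6%). The median was 0.29 for plastid and -0.19 for mitochondrial members, against -0.04 for all probe sets, and the mitochondrial median turned to 0.05 after quantile normalization and to 0.10 after median centring, which moved that of all probe sets to 0.24. Without ssi2 act1 replicate 2 the plastid median was 0.15 and without ssi2 act1 replicate 3 it was 0.60. The mitochondrial median was -0.022 without ssi2 replicate 1, -0.11 without ssi2 replicate 2, -0.086 without ssi2 replicate 3 and -0.072 without ssi2 act1 replicate 3. The arrays did not overlap for 11 members, all higher (background 24%). The count of calls changed with single arrays left out. It was 0 without ssi2 replicate 1 or ssi2 act1 replicate 2. It was 1 without ssi2 replicate 2 or ssi2 act1 replicate 1, and 2 without ssi2 sid2 replicate 1 or 3. The calls over all probe sets split into 720 higher and 1183 lower, against 1075 and 1035 after quantile normalization and 1382 and 815 after median centring.

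In ssi2 sid2 against ssi2 3 members were called (3.85%, background 3.13%), all higher (background 1.42%). Above 0 again lay 56 of 78 members (background 43.1%), with 22 below it (background 56.9%). The medians were 0.36 for plastid and -0.30 for mitochondrial members, against -0.07 for all probe sets, and 22 members did not overlap, 19 higher and 3 lower (background 23.9%). The mitochondrial median was -0.17, -0.46 and -0.096 without ssi2 sid2 replicate 1, 2 and 3, in turn, and -0.19 without ssi2 replicate 1. It was -0.18 after quantile normalization and -0.15 after median centring. Over all probe sets 322 calls were higher and 389 lower, against 438 and 359 after quantile normalization and 424 and 267 after median centring.

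The double mutants were also set against wild type and against each other. In ssi2 act1 0 members were called against wild type in limma (background 1.79%, 0.664% higher and 1.13% lower). An unadjusted limma p under 0.05 was found for 17 of 78 members (background 2920 of 22746), and the arrays of 17 did not overlap (background 16.5%). Above 0 lay 34 members (background 53.1%) and below it 44 (background 46.9%). Leaving out wild type replicate 2 gave 2 calls, and leaving out ssi2 replicate 1 or ssi2 act1 replicate 3 gave 1.

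In ssi2 sid2 6 members were called against wild type (7.69%, background 6.41%), 3 higher (background 3.62%) and 3 lower (background 2.79%). After quantile normalization this split was 2 higher and 5 lower, and after median centring it was 4 higher and 4 lower. The arrays did not overlap for 30 members, 15 higher and 15 lower (background 26%), and 34 lay above 0 (background 51.2%) and 44 below it (background 48.8%). The count was 2 without wild type replicate 1, 1 without wild type replicate 3, 3 without ssi2 replicate 2, 1 without ssi2 sid2 replicate 1 and 0 without ssi2 sid2 replicate 3. Of all probe sets 823 were called higher and 635 lower, against 730 and 702 after quantile normalization and 612 and 790 after median centring.

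In ssi2 act1 against ssi2 sid2 1 member was called, lower (1.28%, background 6.4%, 2.44% higher and 3.96% lower), and 7 did not overlap (background 26.7%). After median centring 1 was called higher and 1 lower. Above 0 lay 45 members (background 51.4%) and below it 33 (background 48.6%). No member was called when ssi2 act1 replicate 2 or ssi2 sid2 replicate 1 or 3 was left out, 2 were when ssi2 act1 replicate 1, ssi2 sid2 replicate 2 or ssi2 replicate 2 was, and 3 when ssi2 replicate 3 was. Over all probe sets 555 were called higher and 901 lower, against 724 and 699 after median centring.

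**Figure D1:**
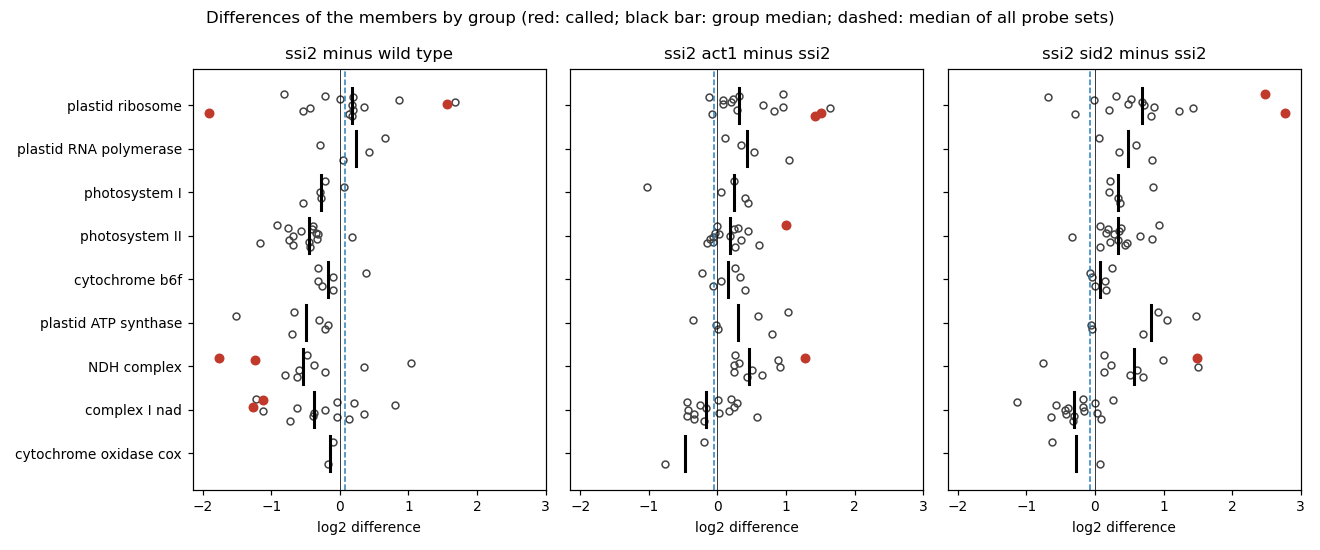
Log2 differences on the log2(signal + 16) scale of all 78 members by functional group, 1 point per probe set, in 3 comparisons, with called members in red, the group median as a black bar and the median of all probe sets as a dashed line. Of the 6 members called in ssi2 minus wild type, 5 lie below 0, and all 4 and 3 called in the double mutants minus ssi2 lie above 0.

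The plastid ribosomal protein genes held 5 of the 8 plastid members called in any comparison, from 15 members, where 18% of all probe sets were called. The gene rpl33 encodes a protein of the large subunit of the plastid ribosome that in tobacco is dispensable under normal conditions and needed in the cold. Its signal was 3560.1, 6883 and 5351 in ssi2 act1 leaves, 12581, 10941 and 13168 in ssi2 sid2 leaves, 1612, 3222 and 1073 in ssi2 leaves and 6692, 6088 and 7442 in wild type leaves. The ssi2 arrays were the lowest and the ssi2 sid2 arrays the highest, and neither overlapped any other genotype, while ssi2 act1 and wild type overlapped. In ssi2 rpl33 fell against wild type, and the log2 difference was -1.91 (SE 0.367, limma adjusted p = 0.00615). In leaf RNA, fewer cells of a type and less RNA per cell cannot be told apart. Against ssi2 it rose in ssi2 sid2, by 2.77 (SE 0.367, limma adjusted p = 0.00218), and in ssi2 act1, by 1.51 (SE 0.367, limma adjusted p = 0.026). The rise in ssi2 act1 depended on single arrays: without ssi2 act1 replicate 2 or 3 or ssi2 replicate 1 or 3 alone, adjusted p lay between 0.0651 and 0.0991. Without wild type replicate 2 and ssi2 replicate 3 together, the ssi2 difference was -1.62 (adjusted p = 0.0181), that of ssi2 sid2 was 2.41 (adjusted p = 0.00493) and that of ssi2 act1 was 1.15 (adjusted p = 0.0547). A pseudocount of 1 and a fit of only the 6 arrays compared also ended the call in ssi2 act1. The double mutants did not pass the threshold against each other, at -1.26 (SE 0.367, limma adjusted p = 0.0652), nor did ssi2 act1 against wild type, at -0.40, or ssi2 sid2 against wild type, at 0.86.

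The gene rps16 is named for a protein of the small subunit. Its signal was 304, 271 and 173 in ssi2 act1 leaves, 695, 540.5 and 1035 in ssi2 sid2 leaves, 129.7, 181 and 66.9 in ssi2 leaves and 252, 199 and 206 in wild type leaves. The ssi2 sid2 arrays stood above every other array, and the ssi2 arrays lay below those of wild type without overlap. In ssi2 sid2 rps16 rose against ssi2 by 2.48 (SE 0.352, limma adjusted p = 0.0035) and against wild type by 1.67 (SE 0.352, limma adjusted p = 0.0163). Between the double mutants it was lower in ssi2 act1, with a difference of -1.53 (SE 0.352, limma adjusted p = 0.0258), and it was the only member called there. The difference of ssi2 from wild type, -0.81 (SE 0.352, limma adjusted p = 0.187), and that of ssi2 act1 from ssi2, 0.96 (SE 0.352, limma adjusted p = 0.129), did not pass. The call against wild type was lost with some single arrays left out: without ssi2 sid2 replicate 1 or 3 or wild type replicate 3 alone, adjusted p lay between 0.0557 and 0.0895. For the call between the double mutants, without ssi2 act1 replicate 2 or 3 or ssi2 sid2 replicate 1 or 3 alone, adjusted p lay between 0.0639 and 0.13, and a pseudocount of 1 ended it too. With wild type replicate 2 and ssi2 replicate 3 both left out, the 3 called differences were 2.14 (adjusted p = 0.00733) against ssi2, 1.61 (adjusted p = 0.0136) against wild type and -1.53 (adjusted p = 0.00917) between the double mutants.

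**Figure D2:**
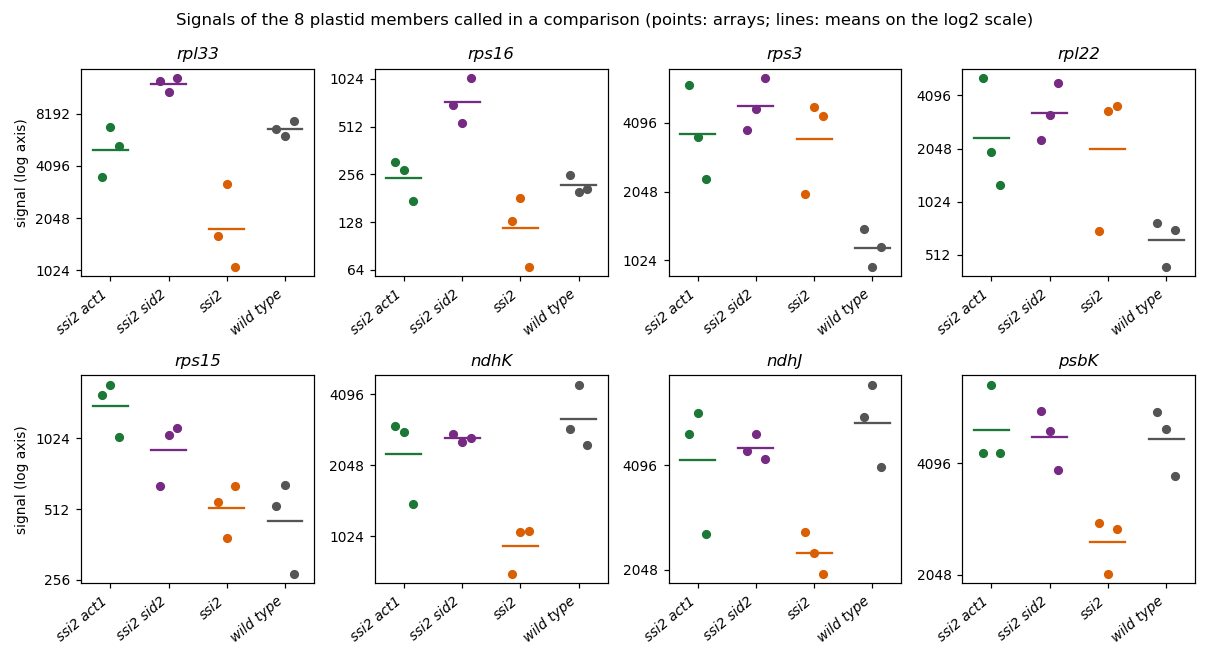
Signals, on log axes, of the 8 plastid members called in at least 1 comparison, with 1 point per array, 3 arrays per genotype, and a line at the mean on the log2(signal + 16) scale. The rpl33 signal is 10941 to 13168 in ssi2 sid2 and 1073 to 3222 in ssi2, and rps3 lies at or below 1402 in wild type and at or above 1992 in every mutant array.

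The small-subunit gene rps3 was higher in ssi2 sid2 and in ssi2 than in wild type. Its signal was 6022, 3563 and 2316 in ssi2 act1 leaves, 3802, 4702 and 6446 in ssi2 sid2 leaves, 1992, 4819.5 and 4411 in ssi2 leaves and 1402, 959 and 1173 in wild type leaves. Every mutant array lay above every wild type array, and the 3 mutant genotypes overlapped. The difference from wild type was 2.05 (SE 0.408, limma adjusted p = 0.0126) in ssi2 sid2 and 1.57 (SE 0.408, limma adjusted p = 0.0297) in ssi2, both called, and 1.65 (SE 0.408, limma adjusted p = 0.0734) in ssi2 act1, which did not pass. For ssi2 sid2, without ssi2 sid2 replicate 3 alone, adjusted p was 0.0713, and for ssi2, without ssi2 replicate 2 or 3 or wild type replicate 1, 2 or 3 alone, adjusted p lay between 0.0579 and 0.129. Without wild type replicate 2 and ssi2 replicate 3 together the ssi2 difference was 1.26 (adjusted p = 0.132) and that of ssi2 sid2 1.91 (adjusted p = 0.0247). The ssi2 call also ended with a pseudocount of 1 and in a fit of only the 6 arrays compared. The 3 mutant genotypes did not differ from each other past the threshold in limma, with differences of 0.08 for ssi2 act1 minus ssi2, 0.48 for ssi2 sid2 minus ssi2 and -0.40 for ssi2 act1 minus ssi2 sid2.

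Its neighbour rpl22 encodes a large-subunit protein. Its signal was 5133, 1958 and 1273 in ssi2 act1 leaves, 2291, 3159.9 and 4820.0 in ssi2 sid2 leaves, 701, 3354 and 3544 in ssi2 leaves and 773, 438 and 706 in wild type leaves. The arrays of ssi2 act1 and of ssi2 sid2 all lay above those of wild type, whereas ssi2 replicate 1 lay within the wild type range and the other two ssi2 arrays far above it. Only in ssi2 sid2 did rpl22 pass, at 2.37 (SE 0.631, limma adjusted p = 0.0463), next to 1.69 (SE 0.631, limma adjusted p = 0.123) in ssi2 and 1.89 (SE 0.631, limma adjusted p = 0.197) in ssi2 act1. For the called difference, without ssi2 act1 replicate 2 or 3, ssi2 sid2 replicate 1, 2 or 3, ssi2 replicate 2 or wild type replicate 1, 2 or 3 alone, adjusted p lay between 0.051 and 0.192. Quantile normalization and pseudocounts of 1 and 64 also ended the call. The difference was 2.12 (adjusted p = 0.0786) with wild type replicate 2 and ssi2 replicate 3 both left out.

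The genes rps19, rpl22, rps3, rpl16, rpl14, rpl36 and rpoA follow each other in this order among the plastid members in the RefSeq table, and all are ribosomal except rpoA, the alpha subunit of the plastid polymerase. This cluster was chosen after its values were seen, so its counts are a description. In ssi2 act1 all 7 differences from wild type were above 0, from 0.84 to 1.89, and 6 of 7 did not overlap wild type. In ssi2 sid2 all 7 were above 0, from 0.85 to 2.37, and 7 of 7 did not overlap. In ssi2 6 of 7 were above 0, from -0.43 for rpl36 to 1.69 for rpl22, and 2 did not overlap. Over all probe sets the shares without overlap were 16.5%, 26% and 25.2%. Of these genes rps3 in ssi2 and rps3 and rpl22 in ssi2 sid2 were called. The arrays of a genotype differed along the whole cluster: the median over the 7 genes of the log2 value minus the wild type mean was 2.34, 1.01 and 0.73 on the ssi2 act1 arrays, 0.73, 1.52 and 1.21 on those of ssi2 sid2, and -0.45, 0.45 and 1.45 on those of ssi2. On the wild type arrays it was 0.20, -0.28 and 0.18. On the same ssi2 arrays the 25S rRNA control signals were 600.1, 201 and 1817, and those of the 5S rRNA control were 106, 210 and 220. Their part in this spread was not tested.

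**Figure D3:**
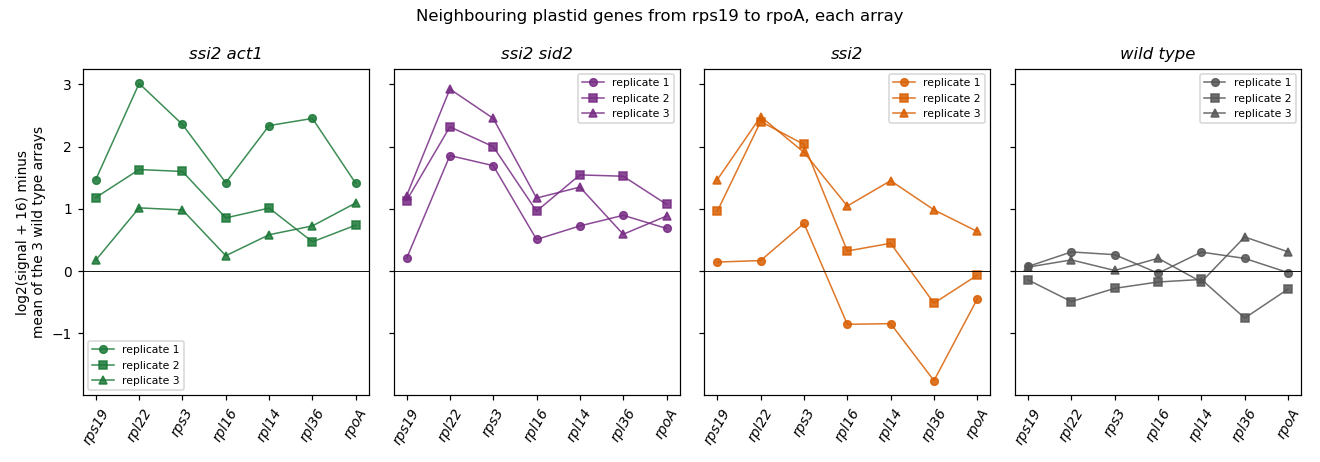
Log2(signal + 16) on each array minus the mean of the 3 wild type arrays, for 7 neighbouring plastid genes in genome order, in 1 panel per genotype with 1 line per replicate. The 3 ssi2 sid2 lines and the 3 ssi2 act1 lines lie above 0 at every gene, and those of ssi2 are spread, with medians over the genes between -0.45 and 1.45.

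The small-subunit gene rps15 was higher in ssi2 act1 than in ssi2. Its signal was 1571, 1727 and 1033 in ssi2 act1 leaves, 639, 1059 and 1136 in ssi2 sid2 leaves, 551, 386 and 641 in ssi2 leaves and 530.0, 651 and 272 in wild type leaves. The lowest ssi2 act1 array lay above every ssi2 and every wild type array but within the range of ssi2 sid2. In ssi2 act1 rps15 rose against ssi2 by 1.43 (SE 0.365, limma adjusted p = 0.0327), and its difference from wild type was 1.60 (SE 0.365, limma adjusted p = 0.0507); the second did not pass. For the called difference, without ssi2 act1 replicate 1 or 2 or ssi2 replicate 1 or 2 alone, adjusted p lay between 0.0733 and 0.14, and a pseudocount of 1 ended the call. In ssi2 sid2 the difference from ssi2 was 0.81. Among the 15 ribosomal members the highest mean signal was that of rps4 and the lowest that of rps14, both of the small subunit. The signal of rps4 was 15558, 16771 and 13766 in ssi2 act1 leaves, 14174, 15852 and 15376 in ssi2 sid2 leaves, 13685, 11678 and 11550.4 in ssi2 leaves and 17089, 14162 and 11879.8 in wild type leaves. That of rps14 was 200.5, 196 and 58.8 in ssi2 act1 leaves, 60.9, 87.8 and 117 in ssi2 sid2 leaves, 99.8, 189 and 172 in ssi2 leaves and 139, 178 and 83.6 in wild type leaves. For rps4 the ssi2 act1 and the ssi2 sid2 arrays lay above those of ssi2, and for rps14 every pair of genotypes overlapped. Neither gene passed the threshold in limma in any comparison.

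As a group, 10 of the 15 ribosomal members lay above 0 in ssi2 against wild type and 5 below, with a median of 0.17, but median centring turned this to 4 above and 11 below. In ssi2 act1 14 of 15 lay above wild type (median 0.49, 7 without overlap, 0 called) and in ssi2 sid2 13 of 15 (median 0.86, 10 without overlap, 3 called), and these counts were 14 and 12 after median centring. Of all probe sets 16.5% and 26% did not overlap in these comparisons, and 1.79% and 6.41% were called. Against ssi2, 13 of 15 were above 0 in ssi2 act1 (median 0.32) and 12 of 15 in ssi2 sid2 (median 0.68). The gene rps18, which lies next to rpl33, had signals of 2868, 3645 and 2682 in ssi2 act1 leaves, 3755, 3677 and 4614 in ssi2 sid2 leaves, 2451, 2223 and 910.2 in ssi2 leaves and 2663, 2321 and 2496 in wild type leaves. It was lowest on ssi2 replicate 3, and the ssi2 sid2 arrays lay above all others. Its differences of 1.22 (SE 0.335, limma adjusted p = 0.0777) for ssi2 sid2 and 0.83 (SE 0.335, limma adjusted p = 0.171) for ssi2 act1 against ssi2 did not pass.

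The 4 polymerase genes (rpoA, rpoB, rpoC1 and rpoC2) were called in no comparison. All 4 lay above 0 in ssi2 act1 against wild type (median 0.87) and in ssi2 sid2 against wild type (median 0.76), and also above ssi2 in both. In ssi2 against wild type 3 of 4 lay above 0 (median 0.24), and 2 of 4 after median centring. The signal of rpoA, the brightest, was 7338, 4608 and 5904 in ssi2 act1 leaves, 4441, 5815 and 5102 in ssi2 sid2 leaves, 2019, 2634 and 4292 in ssi2 leaves and 2710.3, 2254 and 3419.7 in wild type leaves. The ssi2 act1 and ssi2 sid2 arrays all lay above those of ssi2 and wild type, yet the differences from ssi2 were 1.04 (SE 0.307, limma adjusted p = 0.0597) and 0.84 (SE 0.307, limma adjusted p = 0.187). For rpoB, the beta subunit and the dimmest of the 4, the signal was 203, 107 and 17.5 in ssi2 act1 leaves, 78.1, 64.9 and 92.3 in ssi2 sid2 leaves, 33.3, 73.4 and 148 in ssi2 leaves and 28.3, 58.7 and 38.6 in wild type leaves. The ssi2 sid2 arrays lay above those of wild type, and every other pair of genotypes overlapped, with ssi2 act1 holding both the highest and the lowest array.

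The chloroplast NDH complex, which feeds electrons into the plastoquinone pool in cyclic flow around photosystem I, held 2 called members of 10, a share near the 18% of all probe sets called in any comparison. The gene ndhK encodes a subunit of the arm that faces the stroma. Its signal was 3016, 2839 and 1408 in ssi2 act1 leaves, 2771, 2559 and 2665 in ssi2 sid2 leaves, 712, 1065 and 1080.1 in ssi2 leaves and 2919.9, 4480.0 and 2505 in wild type leaves. All ssi2 arrays lay below all other arrays, and the other genotypes overlapped. It fell in ssi2 against wild type, at a log2 difference of -1.76 (SE 0.33, limma adjusted p = 0.00537), and rose against ssi2 in ssi2 sid2, by 1.49 (SE 0.33, limma adjusted p = 0.0316), and in ssi2 act1, by 1.28 (SE 0.33, limma adjusted p = 0.0339). The double mutants did not pass against wild type, with -0.26 (adjusted p = 0.752) for ssi2 sid2 and -0.48 (adjusted p = 0.644) for ssi2 act1 in limma. For ssi2 sid2, without ssi2 sid2 replicate 1, 2 or 3 or ssi2 replicate 1, 2 or 3 alone, adjusted p lay between 0.0613 and 0.122, and for ssi2 act1, without ssi2 act1 replicate 1 or 2, ssi2 sid2 replicate 1 or 3 or ssi2 replicate 1 or 2 alone, adjusted p lay between 0.0528 and 0.116. A pseudocount of 1 ended both of these calls, and a fit of only the 6 arrays compared ended that of ssi2 act1. The decrease in ssi2 was -1.62 (adjusted p = 0.0165) with wild type replicate 2 and ssi2 replicate 3 both left out.

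Its neighbour ndhJ encodes a subunit of the same arm. Its signal was 5049, 5802 and 2592 in ssi2 act1 leaves, 4502, 5036 and 4273 in ssi2 sid2 leaves, 2635, 2285 and 1992 in ssi2 leaves and 5635, 6979 and 4058 in wild type leaves. The ssi2 arrays lay below those of ssi2 sid2 and wild type without overlap, and ssi2 act1 replicate 3 fell within the ssi2 range. In ssi2 ndhJ fell against wild type, with a difference of -1.24 (SE 0.316, limma adjusted p = 0.0272). The differences of ssi2 sid2 and ssi2 act1 from ssi2 were 1.00 (SE 0.316, limma adjusted p = 0.123) and 0.88 (SE 0.316, limma adjusted p = 0.117) and did not pass. For the call in ssi2, without ssi2 replicate 2 or 3 or wild type replicate 1 or 2 alone, adjusted p lay between 0.0676 and 0.0873, and without wild type replicate 2 and ssi2 replicate 3 together the difference was -0.96 (adjusted p = 0.127). The call also ended with a pseudocount of 1 and in a fit of only the 6 arrays compared. The third gene of that run, ndhC, did not overlap between ssi2 and wild type either, at -0.47 (SE 0.211, limma adjusted p = 0.2), which did not pass.

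Of the 10 NDH members, 8 lay below 0 in ssi2 against wild type (median -0.53), all 10 above 0 in ssi2 act1 against ssi2 (median 0.47) and 9 of 10 in ssi2 sid2 against ssi2 (median 0.56), and counts after quantile normalization and median centring were at least 7, 10 and 9 on those sides of 0. Of all probe sets 43.9% lay below 0 in the first comparison, and 46.4% and 43.1% lay above it in the others. The brightest, ndhI, a subunit with iron-sulfur clusters, had signals of 18582, 22167 and 17777 in ssi2 act1 leaves, 17329.8, 17696 and 18829 in ssi2 sid2 leaves, 18666, 16341 and 14522 in ssi2 leaves and 21674, 18837 and 16739.8 in wild type leaves. The dimmest, ndhF, a membrane subunit, had signals of 149, 247 and 40.5 in ssi2 act1 leaves, 44.1, 62.5 and 41.0 in ssi2 sid2 leaves, 72.2, 112 and 98.1 in ssi2 leaves and 20.4, 58.0 and 39.8 in wild type leaves. For ndhI every pair of genotypes overlapped, and for ndhF the ssi2 arrays lay above those of ssi2 sid2 and of wild type. Neither passed in any comparison, and ndhF, at 1.03 (SE 0.474, limma adjusted p = 0.21), and ndhH, at 0.35, were the members above 0 in ssi2 against wild type. In ssi2 sid2 against wild type ndhH had a difference of 1.85 (SE 0.528, limma adjusted p = 0.0603), which did not pass. Its signal was 984, 313 and 193 in ssi2 act1 leaves, 521, 597 and 692 in ssi2 sid2 leaves, 99.8, 352 and 224 in ssi2 leaves and 167, 121 and 181 in wild type leaves. The ssi2 sid2 arrays lay above those of wild type and of ssi2, and 1 ssi2 act1 array lay above them all.

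Most photosystem II members lay below wild type in ssi2 and in both double mutants. In ssi2 14 of 15 lay below 0 (median -0.44), and psbM, a small subunit, was the exception at 0.18. In limma 0 were called and 4 had an unadjusted p under 0.05, and 6 did not overlap. Of all probe sets 43.9% lay below 0, 10.1% were called and 25.2% did not overlap. An unadjusted p under 0.05 was found for 5407 of 22746 probe sets. In ssi2 sid2 14 of 15 lay above ssi2 (median 0.33, background 43.1%) and in ssi2 act1 10 of 15 (median 0.18, background 46.4%). Against wild type 13 of 15 still lay below 0 in ssi2 act1 (median -0.38, background 46.9%). In ssi2 sid2 13 of 15 did as well (median -0.22, background 48.8%). The only call was that of psbK, a small subunit of the core complex. Its signal was 4370.3, 6650.5 and 4365 in ssi2 act1 leaves, 5642, 5004 and 3914 in ssi2 sid2 leaves, 2816, 2060.0 and 2718 in ssi2 leaves and 5636, 5054 and 3778 in wild type leaves. The ssi2 arrays lay below all others. Against ssi2 psbK rose in ssi2 act1 by 1.00 (SE 0.268, limma adjusted p = 0.0407), while in ssi2 sid2 the difference was 0.93 (SE 0.268, limma adjusted p = 0.0904) and that of ssi2 from wild type was -0.92 (SE 0.268, limma adjusted p = 0.0502). Leaving out any of 10 single arrays lost the call: without ssi2 act1 replicate 1, 2 or 3, ssi2 sid2 replicate 1, 2 or 3, ssi2 replicate 1, 2 or 3 or wild type replicate 1 alone, adjusted p lay between 0.0505 and 0.16. A pseudocount of 1 and a fit of only the 6 arrays compared ended it as well. By mean signal, psbM was the brightest member and psbN the dimmest. The signal of psbM was 20094, 29904 and 25444 in ssi2 act1 leaves, 21956, 18387 and 21668 in ssi2 sid2 leaves, 31155, 25349 and 22171 in ssi2 leaves and 23943, 25925 and 19266 in wild type leaves. That of psbN, whose product is an assembly factor in tobacco rather than a subunit, was 248, 676 and 175 in ssi2 act1 leaves, 344, 290.0 and 292 in ssi2 sid2 leaves, 347, 100.2 and 385 in ssi2 leaves and 407, 452 and 377 in wild type leaves. For psbM the ssi2 arrays lay above those of ssi2 sid2, for psbN the wild type arrays lay above those of ssi2 sid2, and every other pair of genotypes overlapped.

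The remaining photosynthetic complexes had no called member. In ssi2 against wild type 4 of 5 photosystem I genes lay below 0 (median -0.27), 5 of 6 of cytochrome b6f (median -0.18) and 6 of 6 of the ATP synthase (median -0.49), against 43.9% of all probe sets. After quantile normalization 3 of 5, 3 of 6 and 4 of 6 lay below 0, and the medians of photosystem I and b6f, at -0.04 and -0.03, were at the -0.04 of all probe sets, so their direction depended on the scaling. The photosystem I reaction centre gene psaB had signals of 17265, 18356 and 12817 in ssi2 act1 leaves, 16443, 17929 and 19191 in ssi2 sid2 leaves, 16670.2, 12204 and 18079 in ssi2 leaves and 22641, 14742 and 19938 in wild type leaves. For psaA, its partner in the reaction centre, they were 5957, 323 and 382 in ssi2 act1 leaves, 2116, 4543 and 4050.3 in ssi2 sid2 leaves, 795, 1383 and 5982 in ssi2 leaves and 5419, 237 and 4319 in wild type leaves. For both every pair of genotypes overlapped. The psaA signals varied widely between the arrays of ssi2 act1, ssi2 and wild type, with the lowest value of all on wild type replicate 2, and no difference of psaA passed the threshold in limma (SE 1.27 in each comparison). Cytochrome b6 gene petB had signals of 17628, 16181 and 15121 in ssi2 act1 leaves, 16589.7, 17442 and 18288 in ssi2 sid2 leaves, 15899, 16207 and 14925 in ssi2 leaves and 23396, 15884 and 19945 in wild type leaves. Those of petD, subunit IV of the same complex, were 252, 215 and 123 in ssi2 act1 leaves, 134, 161 and 135 in ssi2 sid2 leaves, 143, 163 and 138 in ssi2 leaves and 138, 196 and 148 in wild type leaves. For petB the ssi2 sid2 arrays lay above those of ssi2, and every other pair of genotypes overlapped for petB and all did for petD. Differences of the b6f genes lay between -0.32 and 0.38 in ssi2 against wild type. In the ATP synthase, atpB, the catalytic beta subunit, had signals of 24307, 23613 and 20152 in ssi2 act1 leaves, 21668, 20845 and 24099 in ssi2 sid2 leaves, 27797, 21699 and 20257 in ssi2 leaves and 29925, 21931 and 26703 in wild type leaves. The membrane subunit gene atpI had 399, 385 and 252 in ssi2 act1 leaves, 266, 239 and 496 in ssi2 sid2 leaves, 171, 187 and 210.2 in ssi2 leaves and 283, 431 and 257 in wild type leaves. For atpB every pair of genotypes overlapped. All 3 ssi2 arrays of atpI lay below all other arrays, but its difference of -0.70 (SE 0.314, limma adjusted p = 0.203) from wild type did not pass. The wild type signals of atpA and atpF varied widely, with the highest on replicate 3. For atpA they were 2615, 949 and 20054 in wild type, against 10169, 1447 and 1802 in ssi2. For atpF they were 1330, 1037 and 6560 in wild type, against 952, 512 and 780 in ssi2.

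**Figure D4:**
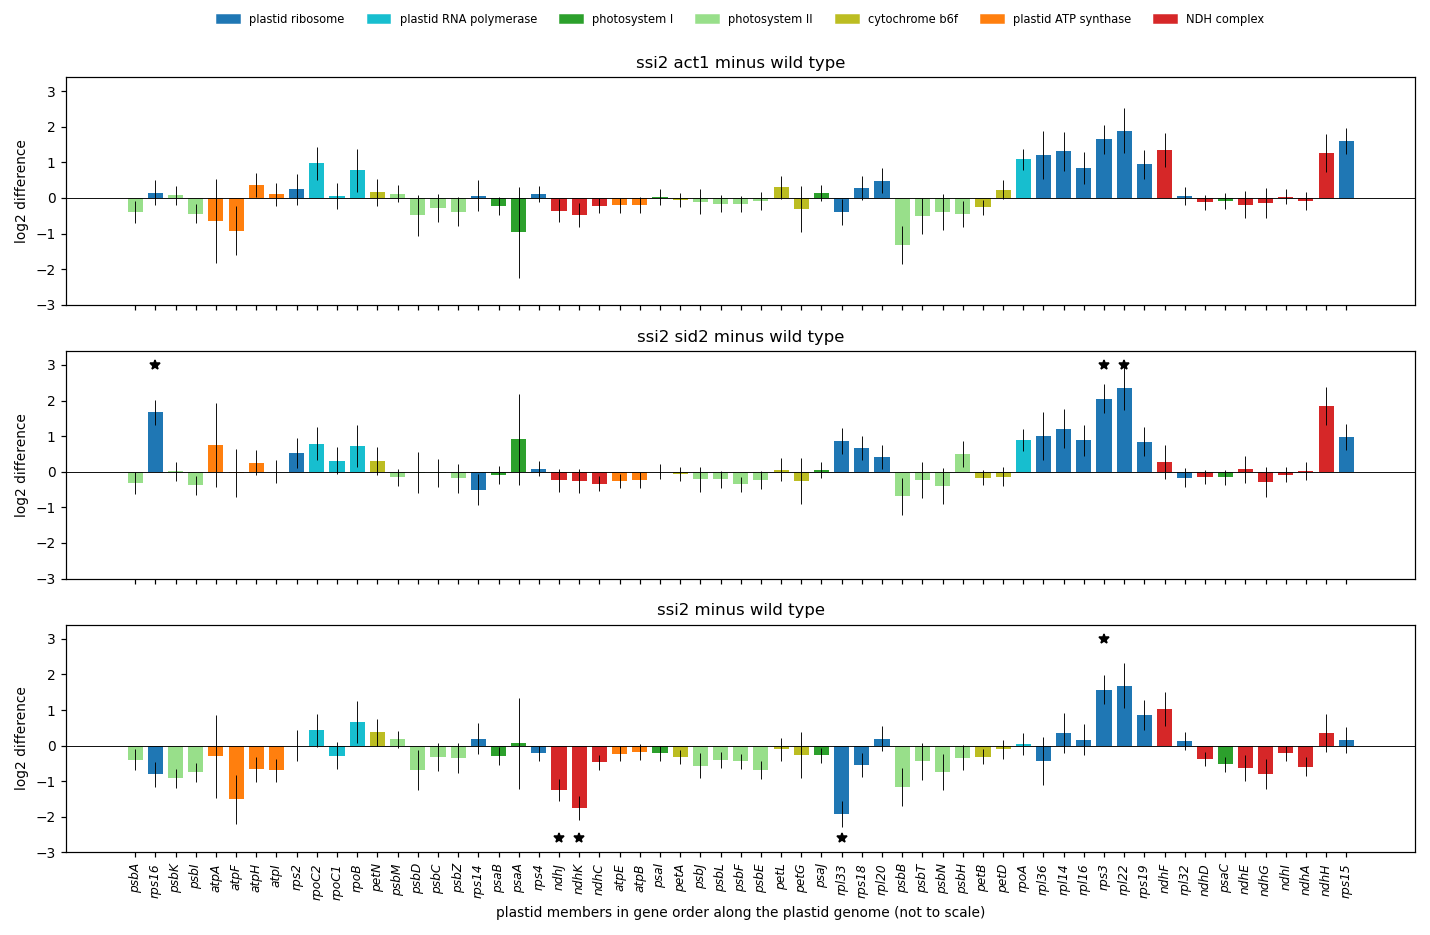
Log2 differences from wild type, with bars for the estimate and lines for its standard error, of the 61 plastid members in their order along the plastid genome, in 1 panel per mutant genotype and coloured by complex. Stars mark called members: rps16, rps3 and rpl22 in ssi2 sid2, and rps3, ndhJ, ndhK and rpl33 in ssi2.

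The mitochondrial members lay mostly below wild type in the mutants. In all 3 mutant genotypes the median of the 17 probe sets lay below wild type, at -0.65 in ssi2 act1, -0.69 in ssi2 sid2 and -0.22 in ssi2, against 0.03, 0.01 and 0.08 for all probe sets. Of the 15 nad probe sets 11, 12 and 11 lay below 0 in these genotypes, and 6, 7 and 7 did not overlap wild type, all lower. Of all probe sets 16.5%, 26% and 25.2% did not overlap. Among the 15 nad probe sets 7 measure nad1 and 2 measure nad5, so these counts and the median are not over separate genes. The ssi2 median became -0.44 after quantile normalization and -0.52 after median centring, and it was -0.38 with wild type replicate 2 left out. The ratio of the actin controls separates wild type from the mutants in the same way. Those of GAPDH and ubiquitin do not separate it from all 3 mutant genotypes. The part of these ratios in the differences was not tested. The signals are low: 13 of the 17 had a mean under 200.

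Complex I is the entry point of the respiratory chain, and nad1 and nad5 encode membrane subunits of it. Of the 7 nad1 probe sets 257325_at was called. Its signal was 156, 280.1 and 228 in ssi2 act1 leaves, 156, 179.7 and 139.8 in ssi2 sid2 leaves, 306, 146 and 128 in ssi2 leaves and 489.9, 439 and 443 in wild type leaves. The ssi2 act1, ssi2 sid2 and ssi2 arrays all lay below the lowest wild type array. Against wild type it fell, with a log2 difference of -1.45 (SE 0.315, limma adjusted p = 0.019) in ssi2 sid2 and -1.27 (SE 0.315, limma adjusted p = 0.0237) in ssi2, with -1.03 (SE 0.315, limma adjusted p = 0.154) in ssi2 act1. For ssi2 sid2, without ssi2 sid2 replicate 1 or 3 or wild type replicate 1 or 3 alone, adjusted p lay between 0.0554 and 0.0925, and for ssi2, without ssi2 replicate 2 or 3 or wild type replicate 1 or 3 alone, adjusted p lay between 0.064 and 0.104. Without wild type replicate 2 and ssi2 replicate 3 together the ssi2 difference was -1.08 (adjusted p = 0.0817). A fit of only the 6 arrays compared also ended the ssi2 call. The other 6 nad1 probe sets were not called, and in ssi2 sid2 against wild type they ranged from -1.27 to 0.24. The probe sets 257327_at and 257329_at, with 6 arrays each under a signal of 16, were the ones above 0, so probe sets of the gene disagreed.

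Of the 2 nad5 probe sets, 257337_at had signals of 31.9, 32.1 and 24.4 in ssi2 act1 leaves, 54.3, 32.8 and 30.6 in ssi2 sid2 leaves, 31.0, 26.8 and 29.4 in ssi2 leaves and 117, 57.4 and 80.1 in wild type leaves. Those of 257338_s_at, a probe set whose suffix marks probes shared by several transcripts, were 82.3, 90.6 and 59.7 in ssi2 act1 leaves, 38.1, 105 and 40.4 in ssi2 sid2 leaves, 61.8, 57.9 and 75 in ssi2 leaves and 221, 95.7 and 237 in wild type leaves. On the first every mutant array lay below every wild type array, and on the second 1 ssi2 sid2 array exceeded the lowest wild type array. The first fell in ssi2 against wild type, with a difference of -1.12 (SE 0.262, limma adjusted p = 0.0181), and had -1.11 (SE 0.262, limma adjusted p = 0.0586) in ssi2 act1 and -0.85 (SE 0.262, limma adjusted p = 0.0792) in ssi2 sid2. The second fell in ssi2 sid2, with a difference of -1.39 (SE 0.374, limma adjusted p = 0.0475), and had -1.23 (SE 0.374, limma adjusted p = 0.0605) in ssi2. For the first, without ssi2 replicate 2 or wild type replicate 1 or 3 alone, adjusted p lay between 0.0521 and 0.0762, and a fit of only the 6 arrays compared ended the call. For the second, without ssi2 act1 replicate 1, 2 or 3, ssi2 sid2 replicate 1 or 3, ssi2 replicate 1, 2 or 3 or wild type replicate 1 or 3 alone, adjusted p lay between 0.0507 and 0.198, and such a fit, pseudocounts of 1 and 64 and a trended and robust prior ended the call.

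The nad2 gene, another membrane subunit, had signals of 19.3, 11.2 and 32.9 in ssi2 act1 leaves, 7.45, 1.80 and 10.6 in ssi2 sid2 leaves, 35.6, 21.5 and 44.2 in ssi2 leaves and 51.4, 21.2 and 34.3 in wild type leaves. The 3 ssi2 sid2 arrays were all under 16, below every other array of the other genotypes, and wild type overlapped ssi2 and ssi2 act1. Its call in ssi2 sid2 against wild type, -1.17 (SE 0.313, limma adjusted p = 0.0471), therefore depends in size on the pseudocount, and the estimate ranged from -2.41 with a pseudocount of 1 to -0.49 with one of 64. Also, without ssi2 act1 replicate 1 or 3, ssi2 sid2 replicate 1, 2 or 3, ssi2 replicate 1 or 2 or wild type replicate 1 or 3 alone, adjusted p lay between 0.0504 and 0.161, and the pseudocount of 64, a fit of only the 6 arrays compared and a trended and robust prior ended the call. The brightest nad member, nad4, had signals of 1030.0, 1696 and 808 in ssi2 act1 leaves, 369.6, 638 and 439 in ssi2 sid2 leaves, 697, 531 and 1114 in ssi2 leaves and 682, 802 and 815 in wild type leaves. Its ssi2 sid2 arrays lay below those of ssi2 act1 and of wild type without overlap, and its difference of 1.23 (SE 0.342, limma adjusted p = 0.0552) between the double mutants did not pass. The dimmest, nad7 of the peripheral arm, had signals of 9.64, 10.5 and 3.55 in ssi2 act1 leaves, 13.6, 17.5 and 16.6 in ssi2 sid2 leaves, 21.3, 7.21 and 14.8 in ssi2 leaves and 9.89, 22.6 and 4.21 in wild type leaves. The ssi2 sid2 arrays lay above those of ssi2 act1, and on 8 of the 12 arrays the signal was under 16.

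The cytochrome oxidase genes cox1 and cox2, the 2 members outside complex I, were not called. The signal of cox1 was 557, 777 and 507 in ssi2 act1 leaves, 388, 802 and 275 in ssi2 sid2 leaves, 845, 462 and 847 in ssi2 leaves and 737, 657 and 845 in wild type leaves. That of cox2 was 67.1, 96.6 and 65.3 in ssi2 act1 leaves, 193, 154 and 103 in ssi2 sid2 leaves, 195, 187 and 69.8 in ssi2 leaves and 151, 164 and 160.0 in wild type leaves. For cox1 every pair of genotypes overlapped. For cox2 the ssi2 act1 arrays lay below those of ssi2 sid2 and of wild type without overlap, at -0.83 (SE 0.349, limma adjusted p = 0.213) and -0.93 (SE 0.349, limma adjusted p = 0.261), and ssi2 replicate 3 lay within the ssi2 act1 range.

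**Figure D5:**
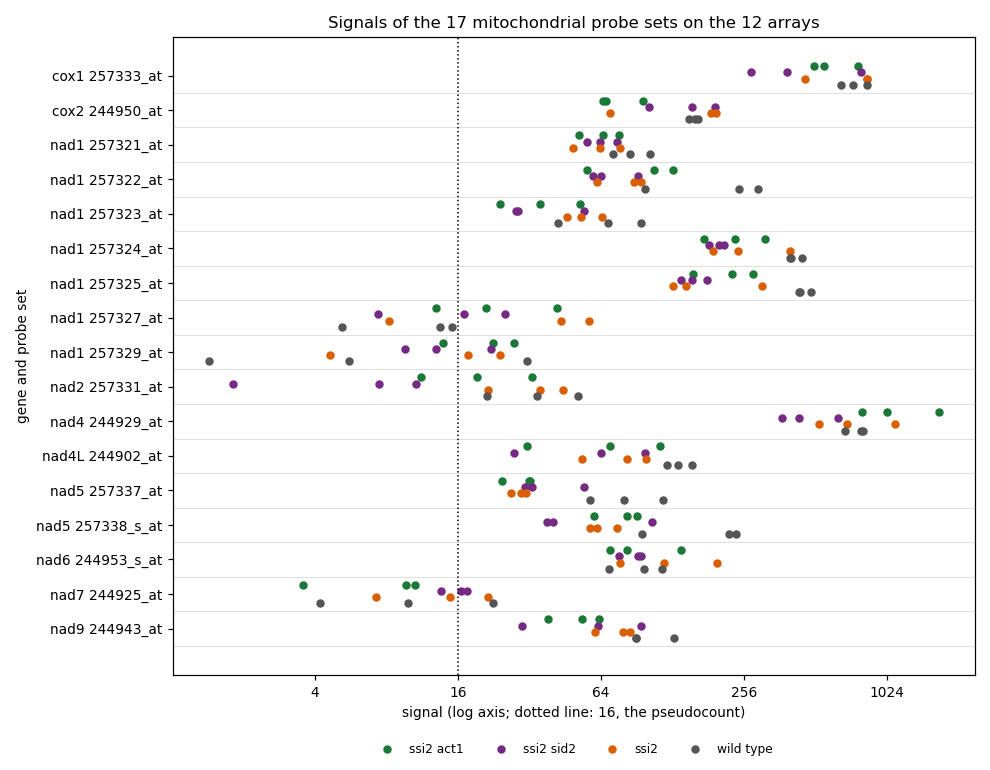
Signals of the 17 mitochondrial probe sets on a log axis, with 1 point per array, coloured by genotype, and a dotted line at the pseudocount of 16. The wild type points of the called probe sets of nad1 (257325_at, 439 to 489.9) and nad5 (257337_at, 57.4 to 117) lie to the right of all mutant points.

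Organelle genes outside the rule and nuclear partners of the complexes were counted from lists chosen with earlier results known. Of 14 other organelle genes, among them rbcL, accD, clpP and matK, 1 was called in any comparison, where 18% of all probe sets were. It was ccb382, a mitochondrial gene named for cytochrome c biogenesis. Its signal was 1090.1 to 1812 in ssi2 act1, 232 to 435 in ssi2 sid2, 370.2 to 1270 in ssi2 and 226 to 410.3 in wild type. The ssi2 act1 arrays overlapped only those of ssi2, and ccb382 rose in ssi2 act1 against wild type by 2.1 (SE 0.422, limma adjusted p = 0.0282) and against ssi2 sid2 by 2.13 (SE 0.422, limma adjusted p = 0.0130). The medians of the list were -0.26 in ssi2 against wild type, 0.32 in ssi2 act1 against ssi2 and 0.14 in ssi2 sid2 against ssi2.

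Of 16 probe sets of nuclear photosynthesis genes, 1 was called higher and 3 lower in ssi2 against wild type (background 5.77% and 4.34%), with a median of -0.54. The lower ones were LHCB4.2 of the photosystem II antenna (-1.91, limma adjusted p = 0.00189), CRR42, needed for NDH accumulation (-1.23, adjusted p = 0.0269), and PSB27, a photosystem II assembly factor (-0.88, adjusted p = 0.0313). The higher one was PPDK (2.25, adjusted p = 0.0469), pyruvate, phosphate dikinase, which entered the list through its prefix. In ssi2 act1 against ssi2 2 rose in limma, PSB27 by 0.83 (adjusted p = 0.0453) and ATPC2 by 0.83 (adjusted p = 0.0417). In ssi2 sid2 against ssi2 0 of 16 were called in limma and 6 had an unadjusted p under 0.05 (background 3682 of 22746). In ssi2 sid2 against wild type LHCB4.3 rose by 4.43 (adjusted p = 0.0111) and LHCB4.2 fell by 1.69 (adjusted p = 0.00757). In ssi2 act1 PSAN, a subunit of photosystem I, fell by 1.13 against wild type (adjusted p = 0.0447). Between the double mutants ATPC2 was higher in ssi2 act1 (0.86, limma adjusted p = 0.0444) and LHCB4.3 lower (-4.52, adjusted p = 0.0102).

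Of 14 probe sets (SDH2-1 has 2) of nuclear genes of mitochondrial respiration, 3 were called higher in ssi2 than in wild type and 0 lower (background 5.77% and 4.34%), with a median of 0.40. These were NDB2, an alternative NAD(P)H dehydrogenase, at 2.22 (limma adjusted p = 0.00171), SDH1-1 of succinate dehydrogenase at 1.71 (adjusted p = 0.0459) and CYTC6A, whose product lies in the plastid lumen, at 0.96 (adjusted p = 0.0475). In ssi2 act1 against ssi2 5 fell (background 5.2%) and 1 rose (background 3.17%). The differences of those that fell were -3.37 for NDB2 (limma adjusted p = 0.000202), -2.76 for CYTC-2 (adjusted p = 0.0486), -2.02 for SDH1-1 (adjusted p = 0.0257), -1.80 for 1 of the SDH2-1 probe sets (adjusted p = 0.0312) and -1.31 for SDH2-2 (adjusted p = 0.0304). CYTC6A rose by 1.54 (adjusted p = 0.00519). In ssi2 sid2 against ssi2 0 of 14 were called in limma and 2 had an unadjusted p under 0.05 (background 3682 of 22746). Against wild type CYTC6A was higher in ssi2 act1 (2.50, limma adjusted p = 0.00254) and in ssi2 sid2 (1.36, adjusted p = 0.0136), and SDH2-2 was lower in ssi2 act1 (-2.02, adjusted p = 0.0101). Between the double mutants CYTC6A was higher in ssi2 act1 (1.14, limma adjusted p = 0.0314), and CYTC-2 (-2.94, adjusted p = 0.0448), NDB2 (-2.03, adjusted p = 0.00613) and NDC1 (-1.49, adjusted p = 0.0468) were lower.

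For the nuclear factors of plastid gene expression 3 probe sets matched, HCF101, PAP20 and PAP85, by the first letters of their symbols alone. Such a match does not show that they are such factors, so the list was effectively unmeasured. Among the 3 probe sets PAP85 was called, higher in ssi2 act1 than in ssi2 sid2 (1.46, limma adjusted p = 0.0410). This call says nothing about plastid gene expression.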

How the data were processed

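Leaf RNA was hybridised to Affymetrix ATH1 arrays, 12 in all, 3 for each of 4 genotypes. The values are the authors' deposited signal intensities, 1 per probe set and array, on a linear scale; Affymetrix Expression Console 1.0 is named per the submitters' processing notes, and how signals were summarised and scaled is not given in the sources used here. Each array's trimmed mean, leaving out 2% at each end, was near 500.0, so arrays had been scaled to a common level. Scaling to a common mean makes a difference relative to the other probe sets.

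Probe sets were named from the platform annotation, and 64 control probe sets were left out. Members were assigned to a genome through the RefSeq table (TAIR10.1): 61 by gene number on the plastid chromosome and 17, whose gene numbers are not in that table, by a symbol on the mitochondrial one. Members and lists were chosen with earlier results of these data known. Genes named with values on each array are those called in any comparison and the marker genes rpl33, rps16, rps3 and ndhJ. The members with the highest and the lowest mean signal of each group were named too. The genes rps18, ndhC, ndhH, atpA and atpF were added after their values were seen.

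Intensities were transformed to log2(signal + 16), and limma 3.58.1 under R 4.3.3 was fitted to all 12 arrays with a mean per genotype, 6 contrasts, a moderated two-sided test and Benjamini-Hochberg adjustment over 22746 probe sets. A difference is on that scale and understates changes of dim probe sets. The fit was tested on simulated data. The number of arrays limits the precision. Alternatives covered normalization, a filter on dim probe sets, the pseudocount, the arrays fitted, a replicate block, array weights, the prior and each array left out. Leaving out wild type replicate 2 and ssi2 replicate 3 together was among them. Of the marker lists, trichome, phloem and flower genes had 0 of 3, 0 of 4 and 0 of 5 genes measured.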

Additional observations from a re-analysis of the deposited data

Results flagged for a closer look

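The effect on rps16, a plastid gene named for a small-subunit ribosomal protein, differed between the second mutations in an ssi2 background. Its log2 difference of ssi2 act1 from ssi2 sid2 was -1.53 (SE 0.352, limma adjusted p = 0.0258), which is the test of the difference between the 2 effects, since both are taken against the same ssi2 arrays. The call was lost with any of 4 arrays left out, ssi2 act1 replicate 2 or 3 or ssi2 sid2 replicate 1 or 3 (adjusted p between 0.0639 and 0.130), and with a pseudocount of 1. All 3 ssi2 act1 arrays lay below all 3 ssi2 sid2 arrays. Groups of 3 arrays were not tested for a single array far from the others.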

How the results depend on the processing

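Of the 20 calls, 4 held under all 22 alternatives (rpl33 and ndhK in ssi2 against wild type, rpl33 and rps16 in ssi2 sid2 against ssi2), 16 were lost under at least 1, and 0 changed direction. The counts below stand without the share of all probe sets called under the same alternative. They do not show whether members changed more than the background. Members called in ssi2 against wild type numbered 6, against 2 in a fit of only the 6 arrays compared. They numbered 25 with array weights and 2 to 8 without single arrays. In ssi2 act1 against ssi2 they numbered 4, against 7 after median centring, 0 with a pseudocount of 1, 1 with only the 6 arrays, 10 with weights and 0 to 5 without single arrays. In ssi2 sid2 against ssi2 there were 3, and 20 with weights. In ssi2 act1 against wild type there were 0, against 1 after quantile normalization, median centring or a filter on dim probe sets (under the 40th percentile), 9 with weights, 3 without wild type replicate 2 and ssi2 replicate 3 together and 0 to 2 without single arrays. In ssi2 sid2 against wild type there were 6, against 16 with weights and 0 to 7 without single arrays. In ssi2 act1 against ssi2 sid2 there was 1, against 2 after median centring or with only the 6 arrays, 3 with the filter or without both arrays, 0 with a pseudocount of 1, 6 with weights and 0 to 3 without single arrays. The mitochondrial median was -0.52 after median centring and -0.63 with the filter in ssi2 against wild type, and 0.10 after median centring in ssi2 act1 against ssi2. It was -0.92 with the filter and -0.38 with a pseudocount of 64 in ssi2 act1 against wild type, and -1.02 with the filter in ssi2 sid2 against wild type. The filter uses the mean over all 12 arrays, so probe sets such as nad5 257338_s_at and nad4L passed it through high wild type signals, and the filtered medians against wild type support nothing. For the other changes the cause was not tested.

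Uncalled differences changed sign. For ndhJ in ssi2 act1 against ssi2 sid2 it was 0.0166 after median centring and -0.34 to 0.24 without single arrays. For rps16 in ssi2 act1 against wild type it was -0.15 with weights and -0.0072 to 0.37 without single arrays. For rps3 in ssi2 act1 against ssi2 it was -0.0773 after quantile normalization, -0.61 with weights and -0.32 to 0.41 without single arrays.

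Same-number correlations of deviations from the genotype means lay between -0.383 and 0.335, and 6 of 18 exceeded 0.1. Arrays with different replicate numbers were not compared in this way, so a pairing by replicate number was not tested. With the replicate number as a block, members called were 5 in ssi2 against wild type, 2 in ssi2 act1 against ssi2, 4 in ssi2 sid2 against ssi2, 0 in ssi2 act1 against wild type, 4 in ssi2 sid2 against wild type and 1 between the double mutants. The block ended the calls of rpl22 and nad5 257338_s_at in ssi2 sid2 against wild type, of psbK and rps15 in ssi2 act1 against ssi2 and of rps3 in ssi2 against wild type. Low signal limits the mitochondrial members, of which 4 had an array under 16.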
